A study of Mus musculus with 36 samples.

Results

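The genes of mitosis described here are 40 genes that act in the G2 and M phases of the cell cycle, in the spindle and in cytokinesis, chosen by name as rows of the FPKM table, and all 40 were among its 21889 gene symbols. FPKM is the number of sequenced fragments per kilobase of transcript and per 1000000 mapped fragments. Livers came from male C57BL/6 mice (C57BL/6J in the study's methods) without treatment or genetic change, with 3 mice per age and 12 ages: GD17.5 (GD for gestational day, which the sample labels write as day -2), Day 0 (collected before the first milk), Days 1, 3, 5, 10, 15 and 20 before weaning, and Days 25, 30, 45 and 60 after it. Each mouse was 1 library, and mice of one age came from more than 1 litter. Whole liver was used, so fewer dividing cells and less mRNA in each dividing cell cannot be told apart. The hepatocyte product albumin (Alb) had a mean of 3272 FPKM at GD17.5, and its later means ranged from 13936 to 47051 FPKM. The 3 muscle markers summed to 865 FPKM in mouse 1 of Day 0 and 58.1 FPKM in mouse 1 of Day 10. The 3 pancreas markers summed to 13824 FPKM in mouse 1 of Day 60, 5337 in mouse 2 of Day 20, 4465 in mouse 3 of Day 0, 3550 in mouse 3 of Day 15 and 3057 in mouse 1 of Day 45. Results without these mice are given where they move a count by over 1.5 times.

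A cell enters mitosis when cyclin A or cyclin B joins the kinase Cdk1 and Cdc25 phosphatases remove its inhibitory phosphates. Aurora and Polo-like kinases then build the spindle, kinesin motors move chromosomes, and the spindle checkpoint holds back the anaphase promoting complex until every kinetochore is attached. Most of these genes are transcribed late in the cell cycle, through MuvB complexes and FOXM1 at an element named CHR (cell cycle genes homology region) and through NF-Y at CCAAT boxes. The fetal liver grows by division of hepatocyte precursors and is also the site where red cell and other blood precursors divide, whereas adult hepatocytes rarely divide.

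The promoters of the genes are shown for their letters, without a test against expression. RefSeq promoters (GRCm38.p6; 250 bases before to 50 bases after the start) were found for 34 of the 40 genes. The letters TTTGAA, the core of a CHR, were present on either strand in 25 of the 34 genes (73.5%), against 20.2% of all 27025 genes with a promoter in the table. Within 50 bases of the start they were present in 23 (67.6%), against 5.72% of all genes. The letters CCAAT, again on either strand, were present in 26 (76.5%), against 41.1% of all genes, and 18 held at least 2 of them (52.9% against 13.3%). Both motifs were present in 21 (61.8% against 8.97%) and neither in 4. A gene with several listed promoters was counted once if any of them held the letters, and the motifs can share a letter at their ends. These are matches of letters, not sites shown to be bound.

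The windows from 120 bases before to 30 bases after the start are shown for 8 genes: for genes with the motifs from several roles (Cdk1, Ccnb2, Ube2c, Top2a, Cdc20 and Racgap1), for Bub3, which kept the most mRNA in the adult, and for Cdc25b, which was the lowest relative to GD17.5 at Days 15 and 20 and had no TTTGAA. They lie, in that order, at chr10:69352883-69353032 (minus strand), chr9:70421525-70421674 (minus), chr2:164769809-164769958 (plus), chr11:99024160-99024309 (minus), chr4:118437314-118437463 (minus), chr15:99651627-99651776 (minus), chr7:131560250-131560399 (plus) and chr2:131186828-131186977 (plus). For Bub3 the first of 2 listed promoters is shown. Capitals mark TTTGAA and CCAAT as read on either strand. Gene positions given further on are from the older build NCBI37/mm9 and cannot be set beside these.
Cdk1: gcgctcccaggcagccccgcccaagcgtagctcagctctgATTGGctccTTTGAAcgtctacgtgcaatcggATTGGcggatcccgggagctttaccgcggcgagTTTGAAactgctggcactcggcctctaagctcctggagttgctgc
Ccnb2: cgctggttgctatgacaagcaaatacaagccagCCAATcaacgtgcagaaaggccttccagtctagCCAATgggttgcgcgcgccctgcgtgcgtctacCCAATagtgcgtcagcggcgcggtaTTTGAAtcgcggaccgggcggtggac
Ube2c: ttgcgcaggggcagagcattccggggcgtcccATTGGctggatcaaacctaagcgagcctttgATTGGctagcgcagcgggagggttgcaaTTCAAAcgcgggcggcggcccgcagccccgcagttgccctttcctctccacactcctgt
Top2a: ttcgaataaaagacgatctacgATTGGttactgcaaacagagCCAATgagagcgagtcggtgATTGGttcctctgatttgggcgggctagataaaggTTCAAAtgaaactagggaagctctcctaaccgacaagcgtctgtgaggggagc
Cdc20: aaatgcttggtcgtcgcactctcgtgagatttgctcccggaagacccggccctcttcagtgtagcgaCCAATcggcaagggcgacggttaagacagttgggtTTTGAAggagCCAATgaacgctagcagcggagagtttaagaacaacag
Racgap1: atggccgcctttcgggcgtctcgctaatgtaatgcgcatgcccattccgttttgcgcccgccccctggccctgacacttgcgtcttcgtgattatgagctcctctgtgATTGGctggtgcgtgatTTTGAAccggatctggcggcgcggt
Bub3: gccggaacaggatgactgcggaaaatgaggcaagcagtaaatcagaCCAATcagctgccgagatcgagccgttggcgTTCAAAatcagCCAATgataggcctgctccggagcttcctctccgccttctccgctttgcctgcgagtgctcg
Cdc25b: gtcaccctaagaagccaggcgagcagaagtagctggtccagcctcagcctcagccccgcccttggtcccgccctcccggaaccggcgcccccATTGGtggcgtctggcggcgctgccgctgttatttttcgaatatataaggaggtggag

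Counted from the first transcribed base, TTTGAA nearest the start began at position -15 in Cdk1, 5 in Ccnb2, -29 in Ube2c, -23 in Top2a, -18 in Cdc20, 6 in Racgap1 and -43 in Bub3. Bub3 held both motifs, as did Cdk1, Ccnb2, Ube2c, Top2a, Cdc20 and Racgap1, and the relation of the letters to mRNA level was not tested.

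Every one of the 40 genes had its highest mean at GD17.5, which was the highest age for 41.1% of the 11149 genes tested. Relative to GD17.5, the median gene had 38.2% left on the day of birth, 29.1% one day later, 41.7% on Day 3 and 40.5% on Day 5. By Day 10 it had 12.2% left, by Day 15 6.81% and by Day 20 3.37%. After weaning it had 6.05% at Day 25, 3.57% at Day 30, then 0.747% at Day 45 and finally 0.476% at Day 60. The course therefore had a first drop at birth, a plateau to Day 5, a second drop to Day 20, a small rise after weaning and a last drop before Day 45. By Day 60, 31 of the 40 genes were under 1% of their GD17.5 level and 2, Bub3 and Cenpa, were at 1 FPKM or more.

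**Figure D1:**
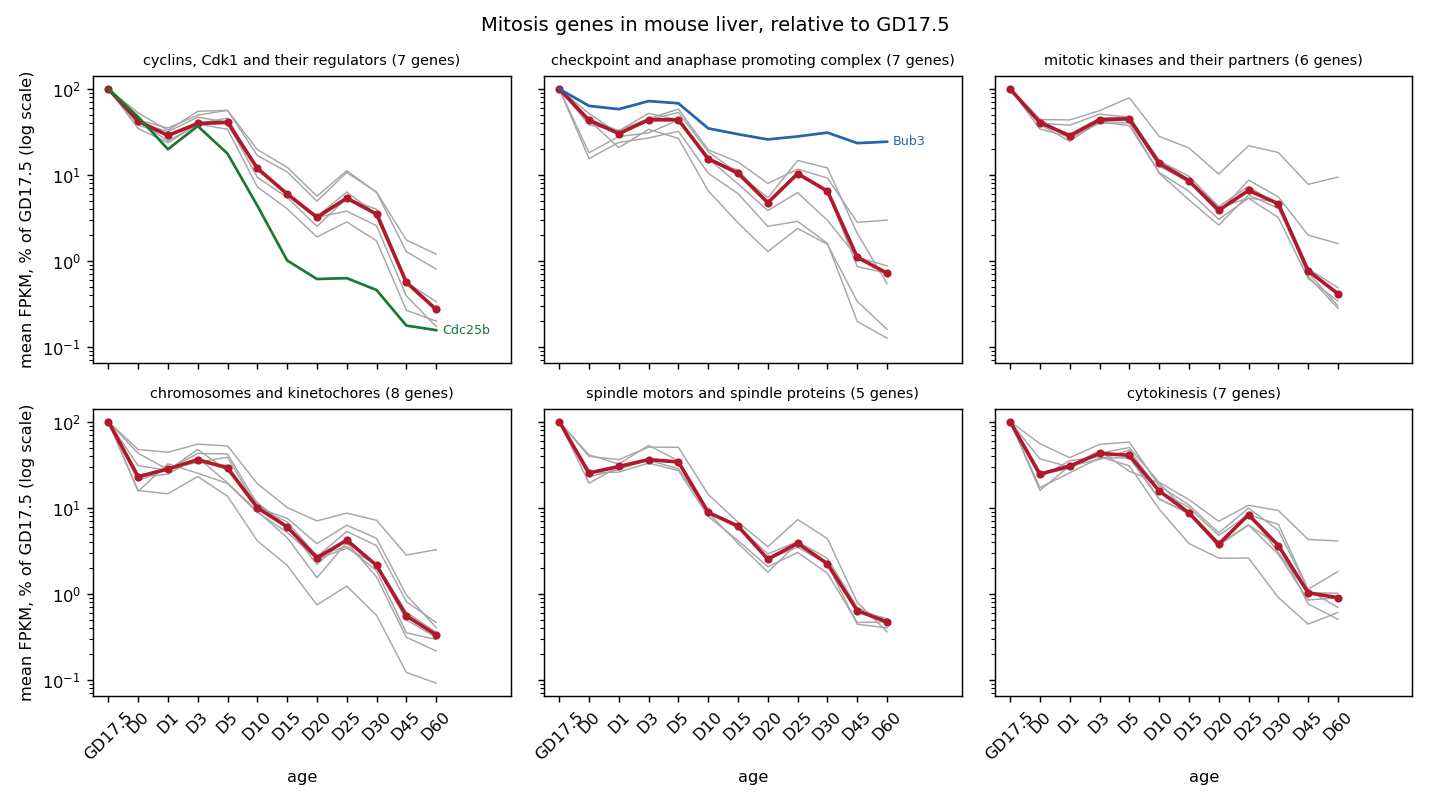
Mean FPKM of each mitosis gene at 12 ages as % of its own GD17.5 mean (log scale), in 6 panels by role; grey lines are single genes, the red line with points is the median of the panel, and Bub3 (blue) and Cdc25b (green) are marked. All panels show the same drops, with a median at Day 60 between 0.274% and 0.902% in each panel, and Bub3 stands apart at 24.3%.

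The first question was whether the genes differed from the mature liver. In limma on log2(FPKM + 1), with a Benjamini-Hochberg adjusted p under 0.05, 39 of the 40 differed from Day 60 somewhere in the course, where 90.7% of all tested genes did. The one gene left out was Kif20b, a kinesin of cytokinesis, which reached 0.541 ± 0.354 FPKM (SD, n = 3) at GD17.5 and so did not pass the filter of 1 FPKM; fitted without the filter it was higher at GD17.5 than at Day 60 (log2 fold change 0.59 ± 0.11 (SE), adjusted p = 3.05e-05). Limma called 0 of these genes lower than at Day 60 at any of the 11 ages, with 0 at an unadjusted p under 0.05. Of all 11149 tested genes, 2079 were lower at GD17.5, 2264 at Day 0, 779 at Day 20 and 19 at Day 45.

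The number of genes higher than at Day 60 was 39 of the 40 at every age up to Day 5. At GD17.5 and Days 0, 1, 3 and 5, respectively, 56.4%, 43.6%, 53.4%, 55.7% and 56.9% of all tested genes were higher. The number was 35 at Day 10 (all genes, 35.3%), 29 at Day 15 (18.4%) and 19 at Day 20 (8.93%). After weaning it was 24 at Day 25 (4.18%) and 18 at Day 30 (1.77%). At Day 45 limma called 0 of the 40 (0.0628% of all genes), with 0 also at an unadjusted p under 0.05. The share of the mitosis genes above Day 60 was larger than that of all genes at each age to Day 30. The count at Day 20 was 11 without mouse 1 of that age. Without mouse 1 of Day 60, which held pancreas mRNA, 39 genes were higher at GD17.5 and 38 at Day 0. For Days 10, 15, 20, 25 and 30 the counts without this mouse were 33, 26, 14, 21 and 14, respectively.

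**Figure D2:**
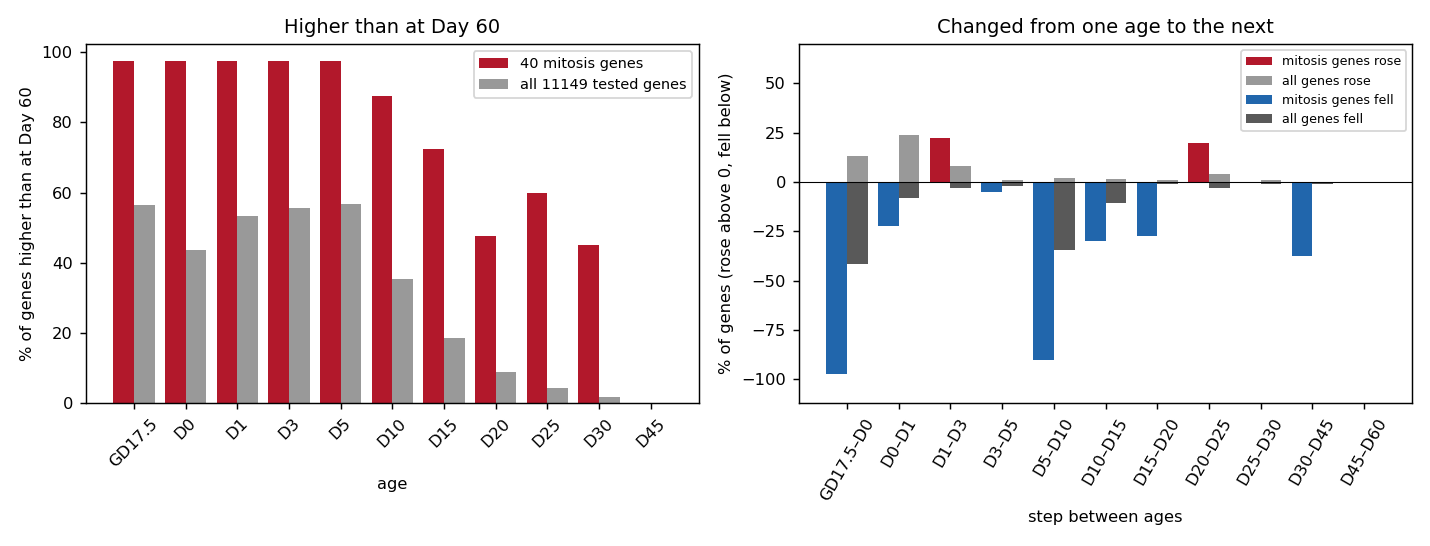
Percent of the 40 mitosis genes (colour) and of all 11149 tested genes (grey) higher than at Day 60 at each of 11 ages (left), and percent that rose (above 0) or fell (below 0) at each of 11 steps between ages (right), by limma with an adjusted p under 0.05. The mitosis bars are taller than the grey bars at each age to Day 30, and the bars for falls are tallest at the steps to Day 0 and to Day 10.

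At GD17.5 the median log2 fold change over Day 60 was 3.86 for the mitosis genes and 0.56 for all tested genes. Fold changes here are on the log2(FPKM + 1) scale, and for genes of low level they come out smaller than the ratio of FPKM. The differences ranged from 1.14 (Cenpf) to 7.72 (Ube2c). When the ages were grouped, 39 of the 40 were lower at Days 10 to 20 than at GD17.5 to Day 5 (61.2% of all genes), with a median of -1.95 against -0.35 for all genes. From Days 10 to 20 to Days 25 to 60, 35 were lower (44.9% of all genes), with a median of -0.61 against -0.19. The 4 genes that passed the filter but not this last test were Cenpe, Cenpf, Ndc80 and Kif11.

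Cdc25b, a phosphatase that activates Cdk1 (chr2:131012685-131024233, NCBI37/mm9), had the highest mean FPKM of the cyclins, Cdk1 and their regulators. It measured 236, 215 and 195 FPKM in the 3 mice of GD17.5 and 0.272, 0.331 and 0.414 FPKM in those of Day 60. The groups were far apart, with a log2 fold change of 7.33 ± 0.24 (SE; adjusted p = 2.82e-21). Cdk1 itself (chr10:68799383-68815686) measured 26.4, 26.7 and 27.3 FPKM at GD17.5, against 0.255, 0.294 and 0.419 FPKM at Day 60. Its 3 fetal values lay within 1 FPKM of each other, and the log2 fold change was 4.40 ± 0.17 (adjusted p = 2.39e-19). Foxm1, a transcription factor of G2 and M genes, measured 14.7, 13.3 and 10.8 FPKM at GD17.5, against 0.083, 0.073 and 0.156 FPKM at Day 60. The ages did not overlap, and the log2 fold change was 3.65 ± 0.19 (adjusted p = 1.36e-16). The other genes of this role, Ccna2, Ccnb1, Ccnb2 and Cdc25c, stood at Day 60 at 0.174% (Ccnb2) to 0.337% (Ccnb1) of their GD17.5 level.

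Ube2c, the ubiquitin-conjugating enzyme of the anaphase promoting complex (chr2:164595398-164604322), was the highest of all 40. It measured 269, 335 and 348 FPKM at GD17.5, against 0.327, 0.390 and 0.818 FPKM at Day 60. Its log2 fold change was the largest of the genes tested here, 7.72 ± 0.30 (adjusted p = 1.53e-19). Among the checkpoint genes, Cdc20, the activator of that complex, stood at 0.545% of its GD17.5 level at Day 60, and the kinases Bub1, Bub1b and Ttk at 0.127%, 0.879% and 0.723%. Mad2l1, the checkpoint protein that binds Cdc20, kept 2.99%.

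Birc5, or survivin, a subunit of the chromosomal passenger complex (chr11:117710565-117717069), led the mitotic kinases and their partners. It measured 96.2, 125 and 105 FPKM at GD17.5, against 0.251, 0.200 and 0.469 FPKM at Day 60, giving a log2 fold change of 6.39 ± 0.25 (adjusted p = 3.17e-19). Plk1, the Polo-like kinase (chr7:129302951-129313389), measured 49.9, 54.3 and 48.4 FPKM at GD17.5, against 0.162, 0.0909 and 0.207 FPKM at Day 60 (log2 fold change 5.49 ± 0.20, adjusted p = 3.94e-20). In both genes every fetal mouse was above every mouse of Day 60. Aurora kinases A and B (Aurka and Aurkb) kept 1.60% and 0.490% of the GD17.5 level, and Tpx2, which activates Aurka on the spindle, kept 0.343%.

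Cenpa, the histone of the centromere (chr5:30969150-30977200), led the chromosome and kinetochore genes over all ages. It measured 33.6, 44.9 and 43.1 FPKM at GD17.5, against 1.09, 1.351 and 1.52 FPKM at Day 60 (log2 fold change 4.16 ± 0.16, adjusted p = 9.50e-20). It kept 3.26%, while Mki67, the coat of mitotic chromosomes, kept 0.0917%, the lowest of all 40. Top2a, the topoisomerase that untangles sister DNA (chr11:98854257-98885503), measured 34.3, 19.3 and 17.2 FPKM in the fetal mice and 0.0756, 0.0683 and 0.0647 FPKM in those of Day 60 (log2 fold change 4.46 ± 0.31, adjusted p = 1.68e-13). The first fetal mouse was well above the other two, and all fetal values were far above the adult ones. Mki67 (chr7:142881471-142908062) measured 0.0363, 0.0226 and 0.0265 FPKM at Day 60, again below every fetal mouse (4.71 ± 0.40, adjusted p = 1.71e-11). Kif22 and the kinetochore genes Cenpe, Cenpf, Ndc80 and Nuf2 kept 0.217% to 0.464%.

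Nusap1, a spindle protein (chr2:119444034-119476980), measured 28.7, 18.1 and 22.1 FPKM at GD17.5, against 0.1003, 0.1046 and 0.1201 FPKM at Day 60 (log2 fold change 4.41 ± 0.26, adjusted p = 2.80e-15). The other spindle genes, Kif11, Kif2c, Kif4 and Spag5, kept 0.362% to 0.515%. Racgap1, which with Kif23 forms the centralspindlin complex of cytokinesis (chr15:99450927-99482087), measured 28.2, 26.9 and 25.5 FPKM at GD17.5, against 0.183, 0.114 and 0.264 FPKM at Day 60 (log2 fold change 4.56 ± 0.21, adjusted p = 6.55e-18). In both genes the 2 ages did not overlap. Kif23, Prc1, Anln and Ect2 kept 0.506% to 1.81%, and Kif20a, a kinesin of the central spindle, kept 4.12%.

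**Figure D3:**
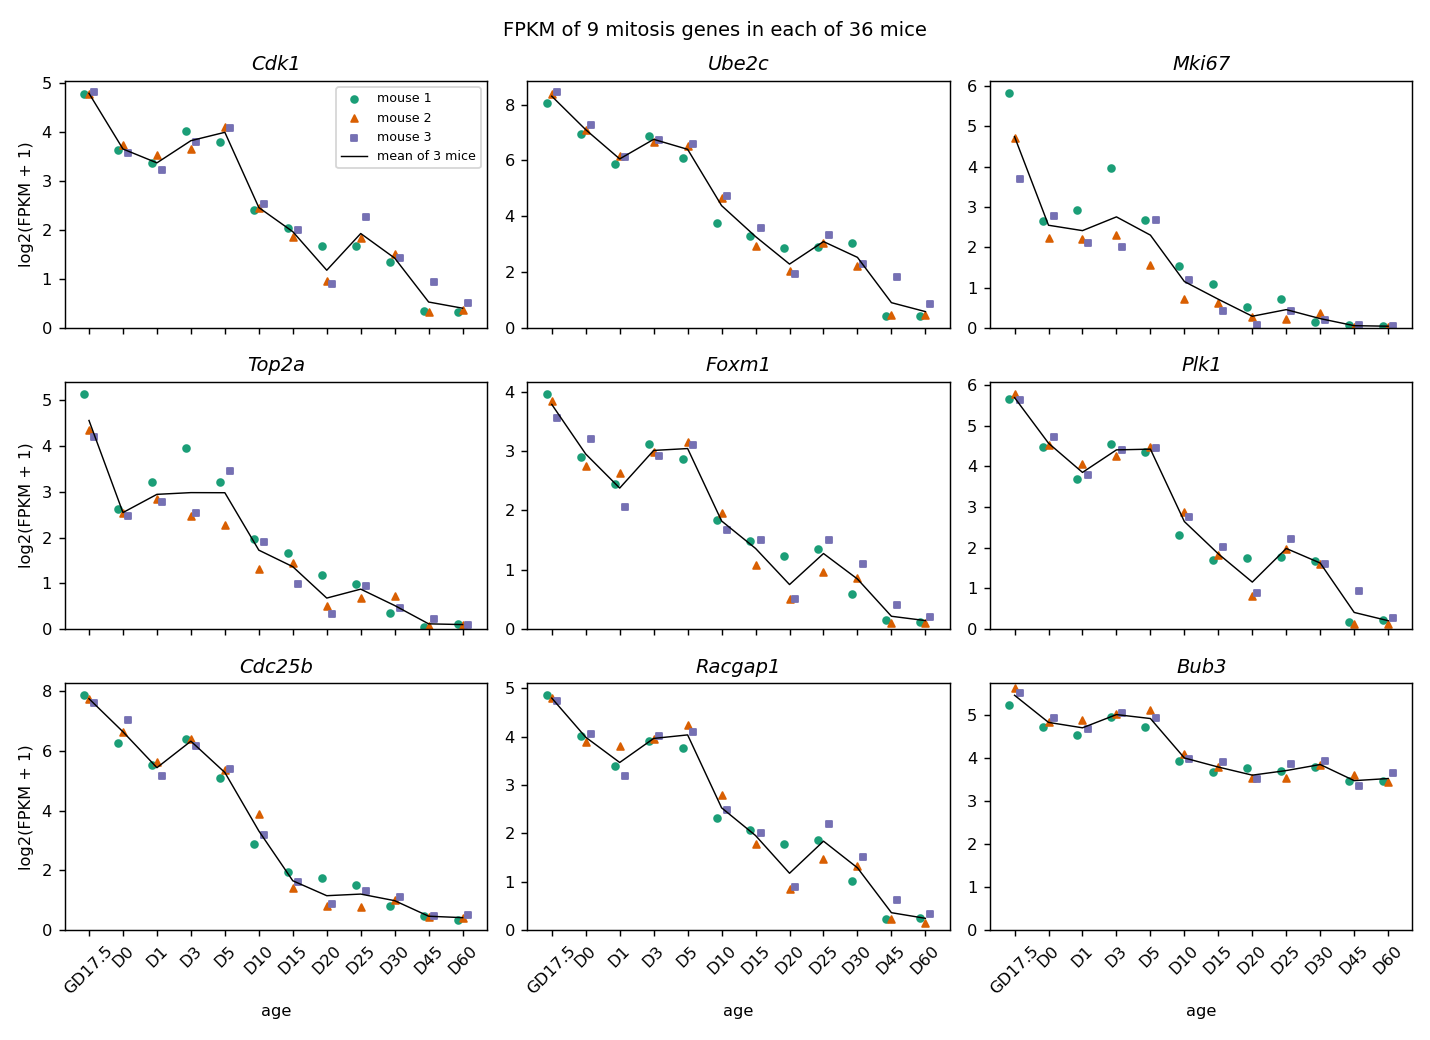
log2(FPKM + 1) of 9 mitosis genes in each of 36 mice at 12 ages; symbols mark mouse 1, 2 and 3 of an age and the line joins the means of 3 mice. Bub3 levels off near 3.5 while the others approach 0, and in Mki67 mouse 1 stands above mice 2 and 3 at GD17.5 and Day 3.

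At birth, from GD17.5 to Day 0, 39 of the 40 genes fell (41.4% of all tested genes), with a median log2 change of -1.26 against -0.29 for all genes. In all 40 genes the 3 mice of GD17.5 were above the 3 mice of Day 0, which held for 44.9% of all tested genes. The size of the drop differed between genes. Mki67 measured 56.1, 25.1 and 12.0 FPKM at GD17.5, against 5.26, 3.68 and 5.80 FPKM at Day 0 (log2 fold change -2.20 ± 0.40, adjusted p = 5.60e-05). By the ratio of the highest to the lowest mouse, the fetal mice differed most in Mki67 of all 40 genes, and the ages did not overlap. Racgap1 measured 15.2, 13.8 and 15.8 FPKM at Day 0 and so kept 55.5% of its GD17.5 mean, compared with 15.8% for Mki67.

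The drop at birth was larger in transcripts of lower GC content. Over the 39 tested genes, the Spearman correlation of the log2 ratio of Day 0 to GD17.5 with GC content was 0.743, and with transcript length -0.456. These are descriptions, since all genes share the same 6 mice. In the 20 genes of lower GC content (39.4% to 47.3%) the median level at Day 0 was 22.95% of GD17.5, and in the 20 of higher GC content (47.4% to 56.0%) it was 42.1%. At Day 1 the corresponding medians were 28.6% and 30.0%, nearly the same. The lowest at Day 0 were Bub1, Ndc80, Mki67, Ect2, Anln, Ttk and Kif11, at 15.5% to 19.3%, and the highest were Bub3, Racgap1, Foxm1 and Cdc20, at 51.8% to 63.5%. On the log2(FPKM + 1) scale the correlation of the change with GC content was 0.557 over the mitosis genes and 0.358 over 10887 tested genes. After the dependence on GC content and length was taken out of every library, it was -0.024 over the mitosis genes. In that setting 37 of the 39 fitted genes still fell at birth, where 4913 of 10887 tested genes did. The removal did not bring the correlation near 0 at every step. It was -0.378 for the step to Day 1 and -0.004 to Day 5, and the later steps ranged from -0.530 (to Day 45) to 0.482 (to Day 25). The part of base composition in the differences between genes was not tested further.

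**Figure D4:**
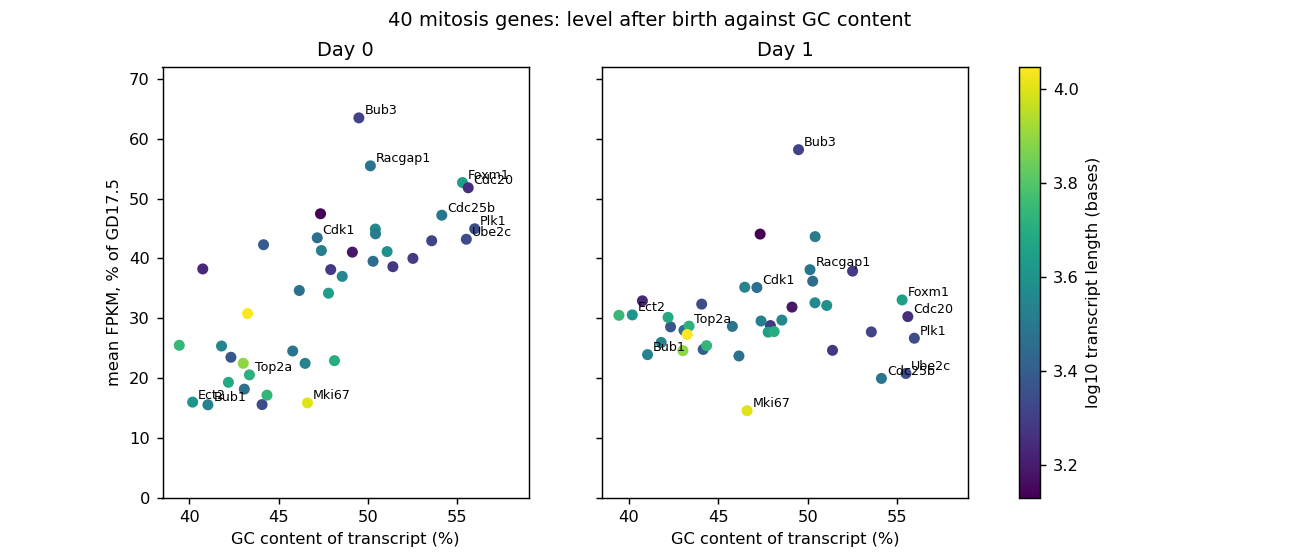
Level of the 40 mitosis genes at Day 0 (left) and Day 1 (right), as % of GD17.5, against the GC content of the transcript (%); colour is transcript length on a log10 scale. At Day 0 genes of low GC content such as Bub1 (15.5%) lie below those of high GC content such as Foxm1 (52.7%), and at Day 1 the 20 genes of lower and the 20 of higher GC content have medians of 28.6% and 30.0%.

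From Day 0 to Day 1, 9 genes fell (7.88% of all genes): Ccnb1, Cdc25b, Foxm1, Bub1b, Cdc20, Ube2c, Aurka, Plk1 and Kif22. Cdc25b had the largest change (log2 fold change -1.20 ± 0.24, adjusted p = 0.000343). Limma called 0 rises (2640 of all 11149 tested genes), with 3 at an unadjusted p under 0.05, Ect2, Kif23 and Ndc80 (adjusted p = 0.114, 0.0794 and 0.070). The median log2 change of the mitosis genes was -0.13, against 0.19 for all genes. With the replicate number as a block, or without mouse 1 of Day 0, 2 genes rose. The 9 falls were 3 with a pseudocount of 0.1 or TPM scaling and 14 with the trend in GC content and length removed. The Spearman correlation of the log2 ratio with GC content was -0.707 here, of opposite sign to the step before. From Day 1 to Day 3, 9 genes rose (8.22% of all genes): Ccnb1, Ccnb2, Cdc25b, Foxm1, Bub1b, Aurka, Kif22, Kif2c and Spag5. This count was 2 without mouse 3 of Day 1, 4 without mouse 1 of Day 3 and 14 without mouse 1 of Day 20, and 0 with values scaled to TPM. From Day 3 to Day 5, 2 genes fell (2.12% of all genes), Cdc25b and Spag5, and this count was 1 without mouse 1 or mouse 2 of Day 3 or mouse 2 of Day 5 and 0 without mouse 1 of Day 5.

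From Day 5 to Day 10, 36 of the 40 genes fell (34.4% of all genes), and in 37 the 3 mice of Day 5 were above the 3 of Day 10 (43.5% of all genes). The median log2 change was -1.27, against -0.31 for all genes. Ube2c measured 66.5, 91.2 and 95.7 FPKM at Day 5 and 12.6, 24.3 and 25.3 FPKM at Day 10, without overlap (log2 fold change -2.02 ± 0.30, adjusted p = 5.26e-06). Ccna2, the cyclin of S and G2 phase, had the largest log2 change (-2.07). The genes not called were Kif20b, which was not tested, and Cenpe, Cenpf and Ndc80, all low. Cenpe, the kinesin of the kinetochore, measured 0.302, 0.219 and 0.310 FPKM at Day 5 and 0.250, 0.0522 and 0.0882 FPKM at Day 10 (log2 fold change -0.18 ± 0.15, adjusted p = 0.378). Ndc80, which binds microtubules at the kinetochore, measured 0.993, 0.254 and 0.657 FPKM at Day 5 and 0.318, 0.123 and 0.437 FPKM at Day 10 (-0.32 ± 0.19, adjusted p = 0.194). In Ndc80 the ages overlapped, and in Cenpe mouse 1 of Day 10 exceeded mouse 2 of Day 5. Both had been clearly above Day 60 at GD17.5, Cenpe with 1.58, 2.00 and 0.695 FPKM and Ndc80 with 4.70, 2.71 and 2.55 FPKM.

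From Day 10 to Day 15, 12 genes fell (10.5% of all genes): Ccnb1, Ccnb2, Cdc25b, Cdc25c, Bub1b, Ube2c, Aurka, Plk1, Cenpa, Kif22, Kif2c and Spag5. The count was 5 without mouse 2 of Day 10 or mouse 2 of Day 15, 18 without mouse 1 of Day 20 and 20 with the trend in GC content and length removed. Without mouse 1 of Day 10, which held muscle mRNA, it was 12, and the falls from Day 5 to Day 10 numbered 36. From Day 15 to Day 20, 11 genes fell (1.16% of all genes): Cdk1, Ccna2, Ccnb1, Ccnb2, Mad2l1, Aurka, Aurkb, Birc5, Nek2, Kif22 and Racgap1. This second count rested on few mice, being 18 without mouse 1 of Day 20, 1 without mouse 1 of Day 15 or without mouse 2 or 3 of Day 20, and 5 or 7 without mouse 3 or 2 of Day 15.

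At Day 20 the mice did not move alike. Mouse 1 was the highest of the 3 for 40 of the 40 genes and, after removal of the trend with GC content and length, for 36 of 39, while it was the highest for 46.7% of all tested genes. Cdk1 measured 2.17, 0.951 and 0.875 FPKM in mice 1, 2 and 3. The median of the 40 genes was 1.27 FPKM in mouse 1, 0.443 in mouse 2 and 0.364 in mouse 3. Mouse 1 thus lay at the level of Day 25 (medians of 1.21, 0.774 and 1.48 FPKM). The pancreas gene Ctrb1 was at 1.31, 1922 and 2.15 FPKM in the same 3 mice, and the part of pancreas mRNA in the mitosis values was not tested. Mouse 1 was also the highest for 7 of 7 neutrophil precursor markers, 5 of 6 B lineage markers and 4 of 4 Kupffer cell markers. It was the highest for 6 of 12 red cell precursor markers, 1 of 5 megakaryocyte markers and 2 of 4 markers of blood stem and progenitor cells. The same held for 2 of 4 endothelial markers and 3 of 7 hepatocyte markers. The part of these cells in its mitosis values was not tested.

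Between Day 20, the last age before weaning, and Day 25, the first after it, 8 of the 40 genes rose (3.94% of all genes). None of the 40 fell, where 363 of all 11149 tested genes did. Those that rose were Cdk1, Ccnb1, Cdc20, Aurka, Plk1, Nek2, Kif22 and Racgap1. The mean was higher at Day 25 for all 40 genes, by a median ratio of 1.72, and in 8 genes the 3 mice of Day 25 were above the 3 of Day 20 (9.74% of all genes). Cdc20 measured 3.88, 1.40 and 1.72 FPKM at Day 20 and 4.69, 7.62 and 6.67 FPKM at Day 25, without overlap (log2 fold change 1.19 ± 0.26, adjusted p = 0.00305). Aurka measured 2.21, 1.21 and 1.22 FPKM at Day 20 and 2.94, 3.83 and 4.36 FPKM at Day 25, again without overlap (0.90 ± 0.16, adjusted p = 0.000262). Cdk1, at 2.17, 2.60 and 3.85 FPKM at Day 25, touched the highest mouse of Day 20 (0.75 ± 0.17, adjusted p = 0.00467). The count of 8 was 16 without mouse 1 of Day 20, 4 without mouse 2 and 2 without mouse 3 of that age, and 3 without mouse 3 of Day 25. Cdc25b was not called, with 2.38, 0.771 and 0.845 FPKM at Day 20 and 1.87, 0.731 and 1.49 FPKM at Day 25 (0.05 ± 0.24, adjusted p = 0.95). Its Day 20 values were nearly equal to those of Plk1 in each mouse (2.38, 0.771 and 0.844 FPKM), and whether these are each gene's own values was not tested, which limits the Day 20 level of Cdc25b and the steps of both genes to and from that age.

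No such rise was called for markers of the blood precursors of the fetal liver. Some of these markers, such as Gata1 and Mpo, were under 1 FPKM at Day 20. At that level even a large ratio is a small change in log2(FPKM + 1). For such markers the lack of a call therefore cannot show that a rise was absent, and only the direction of the means is described. Of 12 red cell precursor markers, 0 rose from Day 20 to Day 25 by limma (3.94% of all tested genes), with 0 at an unadjusted p under 0.05. All 12 means were lower at Day 25, with 0 falls called and 1 at an unadjusted p under 0.05. Their summed level, globins included, was 3428 to 4575 FPKM per mouse at Day 20 and 2396 to 2590 at Day 25. Gata1, a transcription factor among these 12 markers, was at 0.0792 FPKM at Day 20 and 0.0380 FPKM at Day 25. The neutrophil precursor gene Mpo was at 0.559 and 0.0920 FPKM. Of 7 neutrophil precursor, 5 megakaryocyte and 6 B lineage markers (5 of these tested), limma called 0 rises, with 1 at an unadjusted p under 0.05, a megakaryocyte marker. In the same lists 1, 1 and 0 markers fell, respectively (363 of all 11149 tested genes). At an unadjusted p under 0.05 these falls numbered 3, 1 and 2. Of 7 hepatocyte markers 0 changed, with 0 at an unadjusted p under 0.05. Of 4 endothelial markers 1 fell (363 of all 11149 tested genes), with 4 at an unadjusted p under 0.05 and a median log2 change of -0.80. The 3 pancreas markers summed to 1.32 to 1.48 FPKM per mouse at Day 25 and to 30.8 to 5337 FPKM at Day 20, and their part in the difference was not tested.

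**Figure D5:**
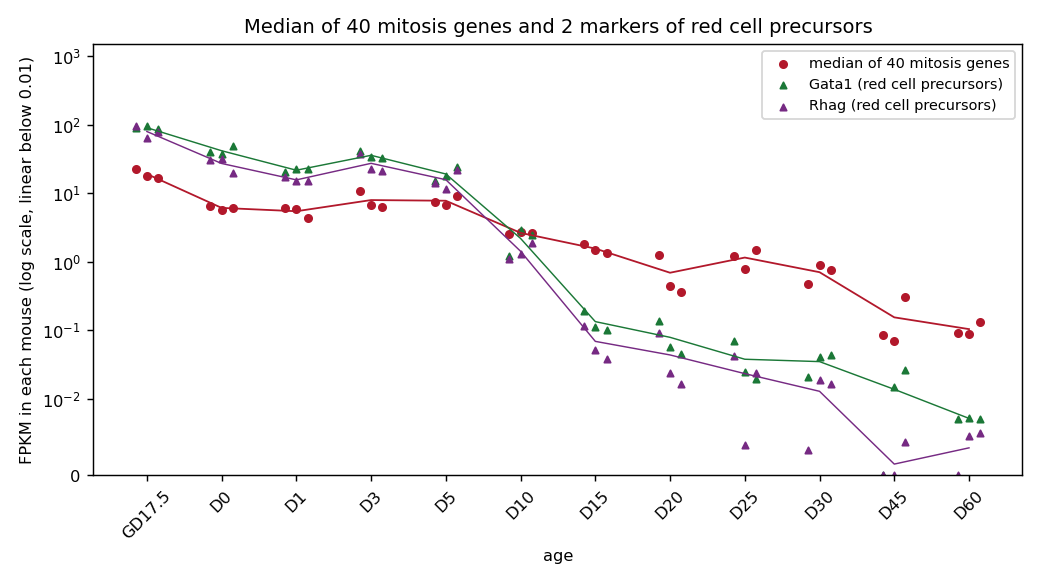
Median FPKM of the 40 mitosis genes in each mouse (red) with 2 markers of red cell precursors, Gata1 and Rhag, at 12 ages (log scale, linear below 0.01); lines join the means of 3 mice. The mitosis genes turn upward between Day 20 and Day 25, when the means of both markers fall.

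From Day 25 to Day 30, limma called 0 falls (0.807% of all genes), with 10 at an unadjusted p under 0.05. It called 0 rises (93 of all 11149 tested genes), with 0 at an unadjusted p under 0.05. From Day 30 to Day 45, 15 genes fell (0.798% of all genes): Cdk1, Ccna2, Ccnb1, Ccnb2, Mad2l1, Cdc20, Ube2c, Aurka, Aurkb, Birc5, Plk1, Nek2, Cenpa, Kif22 and Racgap1. In 36 of the 40 genes the 3 mice of Day 30 were above the 3 of Day 45 (10.3% of all genes), and the median ratio of the means was 0.217. Birc5 measured 7.19, 4.36 and 4.28 FPKM at Day 30 and 0.438, 0.136 and 1.60 FPKM at Day 45, without overlap (log2 fold change -1.92 ± 0.25, adjusted p = 4.91e-05). Cdc20 measured 5.75, 4.84 and 4.95 FPKM at Day 30 and 0.193, 0.207 and 2.31 FPKM at Day 45 (-1.87 ± 0.26, adjusted p = 8.36e-05). The count of 15 was 9 without mouse 1 of Day 45. From Day 45 to Day 60, limma called 0 falls (0.0628% of all genes) and 0 rises (19 of all 11149 tested genes), with 0 at an unadjusted p under 0.05 in either direction.

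Single mice again stood out at Day 45. Mouse 3 was the highest for 37 of the 40 genes (26.98% of all tested genes), with a median of 0.310 FPKM against 0.0853 and 0.0698 in mice 1 and 2. After removal of the trend with GC content and length it was the highest for 38 of 39. Plk1 measured 0.134, 0.0833 and 0.900 FPKM in mice 1, 2 and 3. The same mouse was the highest for 7 of 12 red cell precursor, 4 of 7 neutrophil precursor and 1 of 7 hepatocyte markers. It was also the highest for 3 of 5 megakaryocyte, 3 of 6 B lineage and 2 of 4 Kupffer cell markers. Of the blood stem and progenitor cell markers it was the highest for 0 of 4, and of the endothelial markers for 0 of 4. At Day 3, mouse 1 was the highest for 37 of the 40 (44.4% of all genes) and for 9 of 12 red cell precursor, 0 of 7 neutrophil precursor, 0 of 5 megakaryocyte, 1 of 6 B lineage and 3 of 7 hepatocyte markers. Mouse 1 of Day 3 was also the highest for 2 of 4 blood stem and progenitor cell, 1 of 4 Kupffer cell and 3 of 4 endothelial markers. In these mice most of the mitosis genes deviated in the same direction. At GD17.5, mouse 1 was above mouse 3 by more in longer transcripts, the Spearman correlation of the difference with length being 0.713 over 39 genes.

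Bub3 and Cdc25b departed from the common course. Bub3, a checkpoint protein that brings Bub1 kinases to kinetochores (chr7:138703905-138715412), measured 36.6, 48.2 and 44.9 FPKM at GD17.5, against 10.1, 9.95 and 11.5 FPKM at Day 60. These groups did not overlap (log2 fold change 1.93 ± 0.12, adjusted p = 2.21e-14). It was nevertheless at 24.3% of its GD17.5 mean, when the median gene was at 0.476%. From Day 15 on it stood between 10.1 and 13.4 FPKM, and no step after Day 10 passed the test for it. Bub3 was the highest of the 40 genes at each age from Day 15, whereas Ube2c was the highest to Day 10. Cdc25b was the lowest of the 40 genes, relative to GD17.5, at Days 15 and 20, and Mki67 was lower at Days 5 and 10. Cdc25b went from 17.7% of its GD17.5 level on Day 5 to 4.40% on Day 10, then 1.02% on Day 15 and 0.619% on Day 20, when the median gene was at 3.37%. It measured 32.9, 39.8 and 41.5 FPKM at Day 5 and 2.84, 1.66 and 2.06 FPKM at Day 15. Its step from Day 10 to Day 15 had the largest log2 change of the 40 genes (-1.67 ± 0.24, adjusted p = 9.97e-06).

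Nek2, a centrosome kinase (chr1:193645323-193656929), kept 9.44% at Day 60. Its 3 mice measured 10.5, 10.4 and 9.48 FPKM at GD17.5. By Day 5 the values were 7.28, 7.54 and 9.08 FPKM, and by Day 60 0.810, 1.16 and 0.887 FPKM. At Day 5 it was at 78.9% of GD17.5, the highest share of the 40 genes at that age, and the first 2 of these ages did not overlap. Over all 36 mice the genes went together, Bub3, Cdc25b and Nek2 among them (0.956, 0.963 and 0.970 by the measure given next). The Pearson correlation of each gene with the mean of the other 39, on the log2 scale, was from 0.802 (Kif20b) to 0.995 (Tpx2) and above 0.95 for 32 of the 40, a description in which all genes share the same libraries and the change with age.

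The red cell precursor markers fell through the same period as the mitosis genes, though not at every step. All 12 fell from GD17.5 to Day 0 (41.4% of all tested genes) and all 12 from Day 5 to Day 10 (34.4%) in limma, adjusted over all genes. From Day 0 to Day 1, 10 fell (7.88% of all genes), and from Day 1 to Day 3, 7 rose (8.22%). From Day 3 to Day 5, 6 fell (2.12%), and from Day 10 to Day 15, 11 fell (10.5%). From Day 15 to Day 20, 0 of the 12 markers fell (1.16%), with 0 at an unadjusted p under 0.05. Their median level, relative to GD17.5, was 36.4% at Day 0 and 18.5% at Day 5. It was down to 2.39% by Day 10 and 0.402% by Day 20. The mitosis genes stood at 40.5% at Day 5 and 3.37% at Day 20, above the markers at both ages. Summed FPKM of the 12 markers ranged from 127609 to 185502 per mouse at GD17.5 and from 650 to 715 at Day 60, globins included. The 7 neutrophil precursor markers did not fall at birth (0 of 7 fell in limma, with 0 at an unadjusted p under 0.05, and 2 rose), and their median, relative to GD17.5, was 147% at Day 0, then 61.6% at Day 5 and 0.570% by Day 20. All 5 megakaryocyte markers had higher means at Day 0 than at GD17.5, with 0 called by limma and 0 at an unadjusted p under 0.05, and all 5 fell from Day 5 to Day 10. Rhag and Gata1, from the list of red cell precursor markers, were at 0.00359 and 0.00745 FPKM at Day 60. Of the 7 hepatocyte markers, 6 rose from GD17.5 to Day 0, a step at which 1466 of all 11149 tested genes rose. The part of blood precursors in the fall of the mitosis genes was not tested.

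A further list of 75 genes of mitosis, kinetochores, condensin and cohesion was described beside the 40. All 75 were in the table, 4 of them under other symbols, and 70 passed the filter and were tested. Their highest mean was at GD17.5 in 72 (41.1% of all tested genes). Of the 75, 69 were higher at GD17.5 than at Day 60 (56.4% of all genes), 66 fell at birth (41.4%) and 59 fell from Day 5 to Day 10 (34.4%). From Day 20 to Day 25, 6 rose (3.94%), and from Day 30 to Day 45, 10 fell (0.798%). Those that rose at Day 25 were Spc24, Cdca5, Cdca8, Kifc1, Gtse1 and Pkmyt1. The 3 with the highest mean FPKM were Ncaph2, a condensin II subunit, Pmf1, a kinetochore protein, and Pttg1, or securin. Ncaph2 and Pmf1 kept 24.7% and 23.2% of the GD17.5 level at Day 60, as Bub3 did. Pttg1, the inhibitor of separase, was at 22.6 ± 2.56 FPKM (SD, n = 3) at GD17.5 and 18.6 ± 2.07 FPKM at Day 60, which limma did not call (log2 fold change 0.27, adjusted p = 0.172). Pttg1 and Mad1l1 had their highest mean at Day 0 and Cenpm at Day 5. From Day 0 to Day 1, Spc25, Cenpp and 6720463M24Rik rose and 12 of the list fell (2640 and 879 of all 11149 tested genes). Cks1b rose from Day 25 to Day 30, the only call of the list at that step (93 of all genes rose). Pttg1 was higher at Days 25 to 60 than at Days 10 to 20, where 48 of the list were lower (1387 and 5003 of all genes).

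The depth behind the low adult values can only be estimated, since the values carry no counts. From the spacing of low values, a median of about 84.9 (in units of 1000000) fragments per library was estimated, with relative depths of 0.880 to 1.198 between libraries. On this estimate and the length of the longest transcript, the Day 60 means rested on about 79.1 fragments per library for Cdk1, 95.1 for Ube2c and 24.3 for Mki67. For 9 of the 40 genes, among them Bub1 (1.31), Cenpe (2.05), Ndc80 (2.21) and Cdc25c (2.97), the estimate was under 10 fragments, so ratios to Day 60 for these are rough.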

How the data were processed

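Poly-A RNA of whole liver was sequenced as paired ends, and the authors mapped reads to NCBI37/mm9 with TopHat 1.2.0 and deposited FPKM values from Cufflinks 1.0.3, per gene symbol, as the submitters' processing notes and the study's methods give it. The values carry no counts, scaling beyond FPKM is not given in the sources used here, and summed FPKM per mouse was 353712 to 450597. All 36 sample columns were used. Of values at low genes, 80.2% lay within 0.1 of whole fragments (1474 genes), which gave the estimate of depth.

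The 11149 genes whose mean reached 1 FPKM at some age were fitted, as log2(FPKM + 1), with limma 3.58.1 in R 4.3.3, with 1 mean per age over 36 mice (24 residual degrees of freedom) and a mean-variance trend. Benjamini-Hochberg adjustment was over all tested genes within a comparison, and over genes and comparisons together for a difference in at least one age; adjusted p under 0.05 was called. The comparisons were 11 ages with Day 60, 11 steps between ages, and 2 contrasts of age groups. The members and the gene lists were chosen with earlier results of these data known. All members are named, with values per mouse for the member of highest mean in each of 6 roles, for Mki67, Top2a, Foxm1 and Plk1, and for members apart from the majority. Of the further list, the 3 of highest mean, those that rose at Day 25 and those with a call or a highest age against the majority are named. Cdk1, Cdc20, Aurka and the mice that stood apart were chosen after values were seen. Positions, GC content and length came from GENCODE M1 (mm9), and promoters from RefSeq (GRCm38.p6). The fit was tested on simulated data. Values of 1 marker gene are not reported here.

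Alternatives were a pseudocount of 0.1, no filter or one at 5 FPKM, upper quartile or TPM scaling, no trend, the replicate number as a block, each of 36 mice left out, and, added after seeing the data, GC content and length regressed out within every library. Mice of 1 age are separate animals. Tables and figures were made with matplotlib 3.10.9, scipy 1.17.1, pandas 2.3.3 and numpy 2.4.6 in Python 3.11.15.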

Additional observations from a re-analysis of the deposited data

How the results depend on the processing

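The counts of genes higher than at Day 60 were within 1.5 times of the values given under every alternative that kept all mice. Over the 36 settings without one mouse, they ranged from 38 to 39 for a difference at some age and for GD17.5, Day 3 and Day 5 alone, 37 to 39 at Day 0 and Day 1, 32 to 36 at Day 10, 26 to 30 at Day 15, 11 to 20 at Day 20, 21 to 26 at Day 25 and 14 to 18 at Day 30, and stayed 0 at Day 45. Steps ranged from 38 to 39 falls at birth, 6 to 11 falls and 0 to 2 rises to Day 1, 2 to 14 rises and 0 to 1 falls to Day 3, 0 to 2 falls to Day 5, 32 to 36 falls to Day 10, 5 to 18 to Day 15, 1 to 18 to Day 20, 2 to 16 rises to Day 25 and 9 to 16 falls to Day 45. The age groups gave 38 to 39 and 31 to 36. Genes that rose to Day 1 numbered 1 without mouse 1 of GD17.5 or mouse 2 of Day 1 and 2 without mouse 1 of Day 0 or of Day 3, and 1 gene fell to Day 3 without mouse 1 of Day 3.

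With a pseudocount of 0.1, 3 genes fell to Day 1, 1 rose to Day 3, 0 fell to Day 5 and 23 fell to Day 45. With TPM scaling, 3 fell to Day 1, 0 rose to Day 3, 0 fell to Day 5 and 5 fell to Day 20. With upper quartile scaling, 3 rose to Day 3. With the trend in GC content and length removed, 14 fell to Day 1, 14 rose to Day 3 and 20 fell to Day 15. The causes were not tested. Upper quartile scaling also moved the median of all genes at GD17.5 against Day 60 from 0.56 to 0.14 and the calls over all genes from 6289 higher and 2079 lower to 4536 and 3233. With the replicate block, 2 genes rose to Day 1 instead of 0, and no other count moved by over 1.5 times; of 198 pairs of mice with the same number, 104 correlated above 0.1 in their deviations (median 0.126, from -0.68 to 0.829), and 23 of 36 mice matched best with their own number. Values for pairs of mice with different numbers are not given beside these, and whether same-numbered mice share something was not tested. The labels name no shared litter or batch, and the mice are different animals. Among the fold changes of single genes, the step of Cdc25b to Day 25 ranged from -0.11 to 0.36 without one mouse, against 0.05 with all, and reversed to -0.11 without mouse 2 and -0.08 without mouse 3 of Day 20 and -0.10 without mouse 1 of Day 25; of 2200 such values, 2151 kept direction and call, 36 lost and 10 gained the call.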

Other observations

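Cdc25b and Plk1 had nearly the same FPKM in each of the 3 mice of Day 20: Cdc25b was at 2.38, 0.771 and 0.845 FPKM and Plk1 at 2.38, 0.771 and 0.844 FPKM. At Day 15 Cdc25b was at 2.84, 1.66 and 2.06 FPKM and Plk1 at 2.26, 2.56 and 3.04 FPKM, so the closeness was not present at the age before.

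The genes without TTTGAA in the promoter window were Nuf2, Nek2, Nusap1, Bub1, Cdc25b, Cenpe, Mad2l1, Birc5 and Ccnb1. At Day 60 these 9 stood between 0.127% (Bub1) and 9.44% (Nek2) of their GD17.5 level, and the relation of the letters to this level was not tested.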
